A study of Mus musculus with 24 samples.

Results

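The mitochondrial genome of the mouse was represented by 37 of the 55414 gene identifiers in the count tables, namely every row placed on the sequence MT: 13 mRNAs, 2 rRNAs and 22 tRNAs. They were measured in 24 libraries of polyadenylated RNA from 32D cells, an IL-3-dependent myeloid line from mouse bone marrow that the labels call lymphoblastocytes. There were 3 lines: wild type (WT), and KO1 and KO2, both labelled Nat10+/- and described as Nat10 deficient, Nat10 being the enzyme that acetylates cytidine in RNA. Actinomycin D (0.05 µg/ml) was given to each line, with sampling after 0, 3, 6 and 9 h. It binds DNA and hinders transcription, and how far transcription was blocked at this dose was not tested. Each of the 12 groups had 2 libraries. All cells, WT included, were grown with IL-3 at 10 ng/ml and 10% serum. How the Nat10+/- lines were made, and whether each is a single clone, is not given in the sources used here, so each stands for 1 line. Nothing in the labels ties the 2 libraries of a group to separate cultures, so the spread behind each p-value is that between libraries and could be technical.

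The mitochondrial genome is transcribed from both strands into long precursors by the single-subunit RNA polymerase Polrmt, with Tfam and Tfb2m at the promoters. The heavy-strand precursor carries both rRNAs, all mRNAs but mt-Nd6 and most tRNAs. mt-Nd6 and 8 tRNAs lie on the light-strand precursor. tRNAs punctuate the genes and are cut out, after which most mRNAs receive short poly(A) tails from Mtpap and are held by the Lrpprc-Slirp complex. The mRNAs encode subunits of respiratory complexes I (mt-Nd1 to mt-Nd6 and mt-Nd4l), III (mt-Cytb), IV (mt-Co1 to mt-Co3) and of ATP synthase (mt-Atp6, mt-Atp8).

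A stretch of this genome has annotated copies in the nucleus, which bears on how its genes could be counted. The tables list 7 pseudogenes on the minus strand of chromosome 1 (GRCm39, chr1:24650616-24655278) that match 7 mitochondrial mRNAs over their aligned bases, 5 of them without a mismatch and 2 with 1 mismatch each. From first to last they span MT:6390-11042, a stretch of 4653 bases that holds 6 mRNAs whole (mt-Co2, mt-Atp8, mt-Atp6, mt-Co3, mt-Nd3 and mt-Nd4l) and parts of mt-Co1 and mt-Nd4. mt-Atp8 lies between matched genes but has no listed pseudogene of its own. Read pairs that fit both places were not counted per the file headers, so a mitochondrial pair inside the stretch could be dropped; the part of this in the low counts there was not tested. The start of mt-Nd3 and of its pseudogene Gm28438 shows how alike they are. The capital is the only differing base (T3C, counted from 1 at the 5′ end of mt-Nd3).
mt-Nd3: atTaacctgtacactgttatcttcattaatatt
Gm28438: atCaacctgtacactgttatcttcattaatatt

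mt-Co1 and mt-Nd4 straddle the ends of the stretch, so both keep bases of their own. In the windows below, shown because these edges mark which part of each mRNA has no annotated copy, capitals mark bases that the nuclear pseudogenes Gm29216 and Gm28439 cover. The matched part of mt-Co1 holds 1 mismatch, A1066T counted from the 5′ end of mt-Co1. The match runs from base 1063 of mt-Co1 to its end and over the first 876 bases of mt-Nd4, which leaves 1062 and 502 unmatched bases.
mt-Co1, bases 1033 to 1092: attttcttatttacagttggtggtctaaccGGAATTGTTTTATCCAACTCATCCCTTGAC
mt-Nd4, bases 847 to 906: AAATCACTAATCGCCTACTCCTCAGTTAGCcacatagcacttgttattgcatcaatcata

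Among the tRNAs, which are short and not normally polyadenylated, mt-Tp, mt-Tn and mt-Tc held 92.4% of all tRNA counts. Their genes carry prolyl, asparaginyl and cysteinyl tRNAs of the light strand and are shown because the tRNA results turn on them, with the anticodon in capitals. mt-Tn (MT:5089-5159) and mt-Tc (MT:5192-5257) flank a gap of 32 bases with no annotated gene, and mt-Tp (MT:15356-15422) is the last annotated gene before the control region. All sequences are those of the GENCODE M21 transcripts (GRCm38), whose mitochondrial coordinates equal those of the tables for 37 of 37 genes.
mt-Tp: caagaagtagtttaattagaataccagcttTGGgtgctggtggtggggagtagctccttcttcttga
mt-Tn: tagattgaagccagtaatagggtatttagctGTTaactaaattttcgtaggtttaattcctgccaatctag
mt-Tc: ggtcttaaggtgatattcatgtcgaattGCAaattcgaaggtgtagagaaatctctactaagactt

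Libraries held 15361601 to 17338939 gene counts. Nat10 stood at 112 ± 1.52 CPM (gene counts scaled to library size; mean ± SD, n = 2) in WT, 103 ± 7.62 in KO1 and 97.2 ± 2.87 in KO2 at 0 h, log2 differences from WT of -0.12 (edgeR adjusted p = 0.049) and -0.21 (adjusted p = 0.00029). Of 12 myeloid markers, 7, 7 and 6 exceeded 1 CPM at 0 h in WT, KO1 and KO2, against 1 of 9 lymphoid markers in each line. The summed myeloid level over all times was 703 to 1232 CPM in WT, 731 to 1096 in KO1 and 681 to 1119 in KO2. The summed lymphoid level was 6.62 to 35.6 CPM in WT, 4.14 to 31.3 in KO1 and 4.11 to 32.3 in KO2. Of 5 stromal markers, 3 exceeded 1 CPM in WT and 0 in KO1 and KO2, with summed levels of 0.342 to 6.57 CPM in WT and at most 0.991 CPM in the other lines. Of 4 erythroid markers, the summed level was 30.7 to 45.1 CPM in KO2, above the 16.99 to 24.2 in WT and 18.6 to 25.5 in KO1. Of 5 macrophage markers it was 98.7 to 252 CPM in WT, 51.3 to 262 in KO1 and 37.6 to 219 in KO2, with C1qa at 0 in every library. The part of these markers in the results was not tested. Spike-in counts ran from 120 to 257 per library in WT, 3742 to 5780 in KO1 and 5339 to 13774 in KO2, although the labels state that equal amounts were added.

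Of the 37 genes, 34 had a count and 24 passed the filter on low counts: 13 mRNAs, 2 rRNAs and 9 tRNAs. The mRNAs fell into separate ranges by position. Per kb of annotated length, the 6 mRNAs wholly inside the copied stretch stood at 1.79 to 30.3 CPM in WT at 0 h, and the 7 others at 886 to 6464 CPM, so that the lowest of the 7 was 29.3-fold above the highest of the 6. The 6 held 0.280% of all mRNA counts over the 24 libraries. Levels of the mRNAs are therefore compared only among the other 7, while counts and medians over the 13 mRNAs hold both sets. The 7 are called outside the copied stretch below, although mt-Co1 and mt-Nd4 lie partly inside it.

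**Figure D1:**
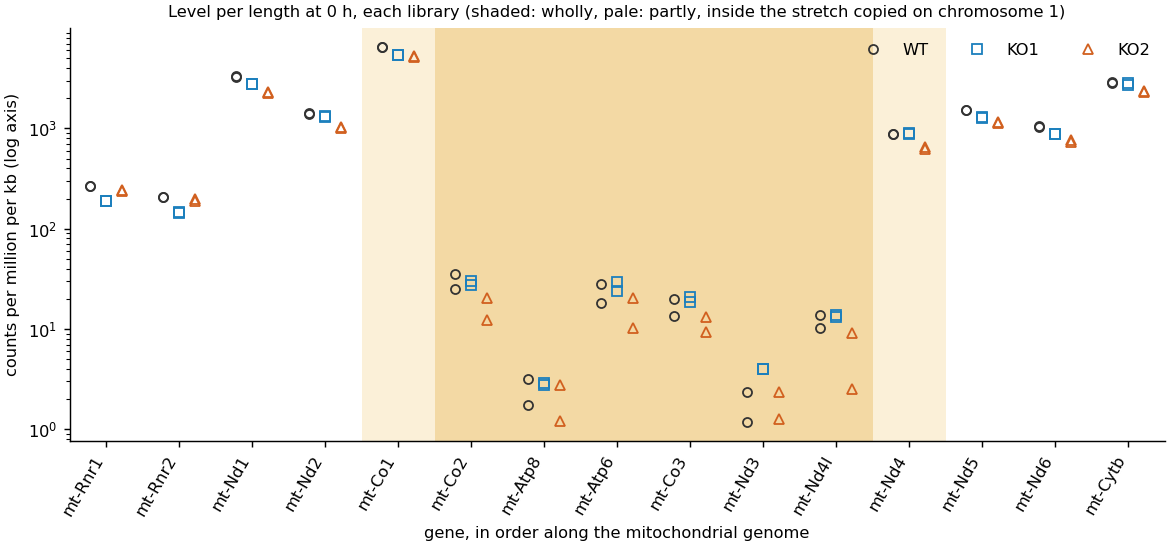
Level per length (CPM per kb on a log axis) of the 13 mRNAs and 2 rRNAs at 0 h, in order along the mitochondrial genome, each symbol being 1 library of WT, KO1 or KO2. The 6 genes in the darker band lie wholly inside the stretch copied on chromosome 1 and sit at 1.79 to 30.3 in WT, far under mt-Co1 and mt-Nd4 beside them, which lie partly inside.

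Among the 7 mRNAs, mt-Co1 (MT:5328-6872), the catalytic core of complex IV, was the highest in WT at 0 h, at 6464 ± 30.9 CPM per kb (SD, n = 2). The complex I subunit mt-Nd1 (MT:2751-3707) followed at 3279 ± 49.5 and mt-Cytb (MT:14145-15288), the heme-bearing subunit of complex III, at 2872 ± 29.4. mt-Nd5 (MT:11742-13565) stood at 1525 ± 11.8, mt-Nd2 (MT:3914-4951) at 1400 ± 23.3, mt-Nd6 (MT:13552-14070) at 1039 ± 23.8 and mt-Nd4 (MT:10167-11544) at 886 ± 5.1 CPM per kb. Each step in this order was larger than the SD of its neighbours. Counting used no strand, so the level of mt-Nd6, a light-strand gene, may hold reads of the heavy-strand precursor. Over the unmatched bases only, mt-Co1 came to 9403 and mt-Nd4 to 2432 CPM per kb, upper values since some counts may lie in the matched part, and mt-Nd4 then ranked above mt-Nd5, mt-Nd2 and mt-Nd6. The rRNAs, measured only as far as poly(A) selection kept them, stood at 267 ± 0.528 for mt-Rnr1 (12S, MT:70-1024) and 206 ± 1.5 CPM per kb for mt-Rnr2 (16S, MT:1094-2675).

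The share of counts on the mitochondrial genome differed between the lines before treatment and rose in all 3 during actinomycin D. At 0 h the 13 mRNAs took 2.18% and 2.20% of gene counts in the WT libraries, 1.89% and 1.90% in KO1 and 1.70% and 1.66% in KO2, so the lines did not overlap. At 9 h the shares were 3.84% and 3.83% in WT, 3.35% and 3.38% in KO1 and 3.07% and 2.99% in KO2. The ratio of the 9 h to the 0 h mean was 1.75 in WT, 1.78 in KO1 and 1.80 in KO2. The 4 Nat10+/- libraries lay below both WT libraries at each of the 4 times. An exact two-sided permutation test of 4 against 2 libraries has 15 splits and cannot go below p = 0.0667, the value it gave at 0, 6 and 9 h (adjusted p = 0.107 over 8 tests); at 3 h p was 0.133. In a share of each library's gene counts, less mitochondrial RNA and more nuclear RNA cannot be told apart.

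**Figure D2:**
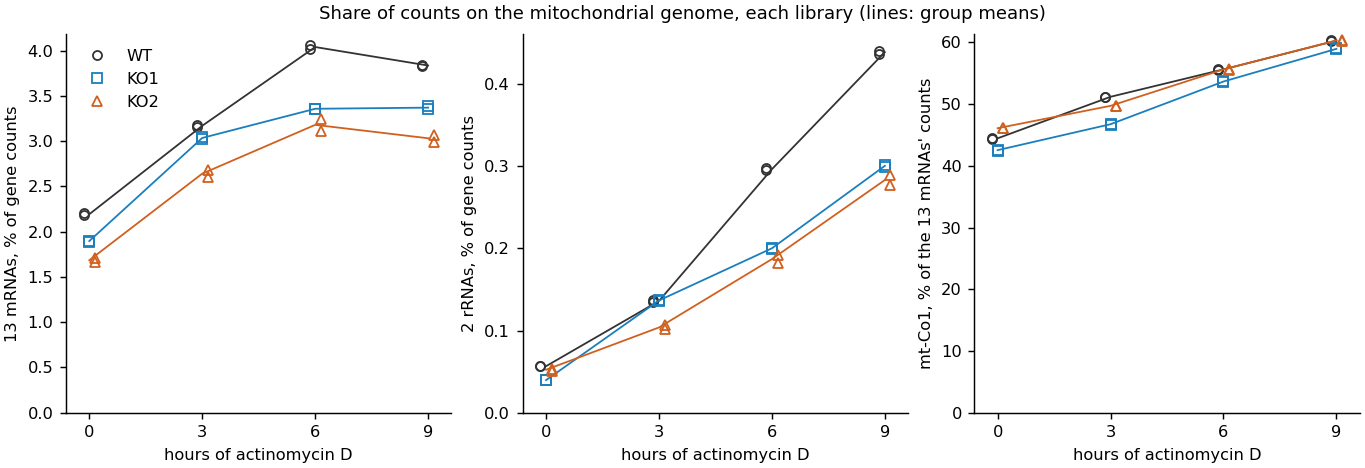
Percent of gene counts on the 13 mRNAs (left) and the 2 rRNAs (middle), and mt-Co1 as a percent of the 13 mRNAs' counts (right), against hours of actinomycin D, each symbol being 1 library and lines joining group means. The mRNA share rose to 4.04% in WT at 6 h and the rRNA share to 0.439% at 9 h, while mt-Co1 went from 44.5% to 60.3% of the mRNA counts in WT.

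Before treatment, 6 of the 13 mitochondrial mRNAs were lower in KO1 than in WT, 9 were lower in KO2 than in WT, and 11 were lower in KO2 than in KO1. The 6 called in KO1 are all among the 7 mRNAs not wholly inside the copied stretch. In KO1, 0 mRNAs were higher (adjusted p under 0.05), against 12.3% lower and 15% higher of all 16167 genes tested. In KO2, 9 were lower and 0 higher, against 14.3% lower and 15.1% higher of all genes. The median log2 difference of the 13 was -0.05 in KO1 and -0.46 in KO2, beside 0.01 and 0.00 over all genes. The 13 mix unlike sets. For the 7 outside the copied stretch the median was -0.23 in KO1 and -0.46 in KO2, with 6 and 7 called lower. For the 6 inside it was 0.20 and -0.57, with 0 and 2 called lower. Between the lines, 11 of 13 were lower in KO2 than in KO1 and 0 higher, against 9.55% and 7.29% of all genes. Of these 11, 7 lie outside the copied stretch and 4 inside it. Leaving out replicate 2 of KO2 at 0 h reduced the 11 to 7, and DESeq2 also called 7. Against WT, DESeq2 called 6 lower in KO1 and 7 in KO2. Of the 13 higher in each of these comparisons, DESeq2 called 0, and at an unadjusted p under 0.05 edgeR gave 1 in KO1 against WT and 0 in the other two.

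mt-Co1 stood at 9953 and 10020 CPM in WT, 8309 and 8373 in KO1 and 8076 and 7885 in KO2 at 0 h. The libraries of the lines did not overlap, and the log2 differences from WT were -0.26 ± 0.012 in KO1 and -0.32 ± 0.012 in KO2 (estimate ± SE). mt-Nd1 stood at 3104 and 3171 CPM in WT, 2635 and 2654 in KO1 and 2230 and 2183 in KO2, log2 differences of -0.25 and -0.51. mt-Nd4 stood at 1216 and 1226 CPM in WT, 1201 and 1240 in KO1 and 894 and 866 in KO2. The KO1 libraries of mt-Nd4 lay on both sides of WT (adjusted p = 1), whereas KO2 was lower by a log2 difference of -0.47 ± 0.019 (edgeR adjusted p = 1.3e-42). mt-Nd2, mt-Nd5 and mt-Nd6 were lower in both lines, by -0.10 to -0.25 in KO1 and -0.41 to -0.46 in KO2. mt-Cytb was lower by -0.30 in KO2. In KO1 its difference of -0.05 (adjusted p = 0.018) was lost without replicate 1 of KO1 (-0.01, adjusted p = 0.66) or without replicate 2 of WT (-0.03, adjusted p = 0.32).

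The rRNAs did not follow the mRNAs across the lines. mt-Rnr1 stood at 255 and 254 CPM in WT, 182 and 179 in KO1 and 234 and 226 in KO2, and mt-Rnr2 at 327 and 324, 231 and 229, and 314 and 302 CPM. KO1 was the lowest line for both. The log2 differences from WT were -0.50 ± 0.028 and -0.50 ± 0.027 in KO1 and -0.15 ± 0.027 and -0.08 ± 0.025 in KO2. KO2 exceeded KO1 by 0.35 for mt-Rnr1 and 0.42 for mt-Rnr2, while all 7 mRNAs outside the copied stretch were lower in KO2 than in KO1. The KO2 difference of mt-Rnr2 (adjusted p = 0.01) was lost without replicate 1 of WT (-0.07, adjusted p = 0.069) or replicate 2 of KO2 (-0.05, adjusted p = 0.29). Counted per 100 mRNA counts, the rRNAs gave 2.61 and 2.56 in WT, 2.12 and 2.07 in KO1 and 3.13 and 3.09 in KO2.

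During actinomycin D, mitochondrial mRNAs rose relative to the average transcript by 3 h, and by 9 h most were still higher than at 0 h. Directions over time hold on the scale of trimmed mean of M-values (TMM), which sets the average gene at no change; on it the median of all tested genes itself moved by 0.09 to 0.13 in log2 from 0 h to 3 or 9 h. At 3 h, 12 of 13 mRNAs were higher and 0 lower in WT, 10 and 0 in KO1 and 9 and 0 in KO2, against 38.6%, 37.9% and 37.6% of all genes higher and 33.5%, 33.4% and 33.3% lower. For the 0 lower in each line, edgeR at an unadjusted p under 0.05 and DESeq2 also gave 0. As higher at 3 h, DESeq2 called 8 in WT, 7 in KO1 and 7 in KO2. At 9 h, 10 were higher and 1 lower in WT, 9 and 2 in KO1 and 9 and 1 in KO2, against 43.2%, 42.2% and 42.0% higher and 38.5%, 38.3% and 38.8% lower of all genes. The median log2 change of the 13 was 0.62, 0.71 and 0.70 at 3 h and 0.38, 0.38 and 0.35 at 9 h in WT, KO1 and KO2. For the 7 outside the copied stretch it was 0.50, 0.71 and 0.72 at 3 h and 0.26, 0.31 and 0.32 at 9 h. For the 6 inside it was 0.88, 0.64 and 0.68 at 3 h and 0.89, 1.04 and 0.67 at 9 h.

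On the scale of the spike-in counts these directions differed by line. By 3 h, 4 mRNAs were higher and 1 lower in WT, 8 and 0 in KO1, and 0 and 1 in KO2. Of all genes on this scale, 17.4% were higher and 46.2% lower in WT, 27.1% and 34.5% in KO1, and 13.1% and 52.7% in KO2. By 9 h, 2 mRNAs were higher and 7 lower in WT, 8 and 0 in KO1, and 0 and 9 in KO2. Of all genes, 21.1% were higher and 55.8% lower in WT, 41.3% and 33.6% in KO1, and 16.6% and 63.0% in KO2 on this scale, with medians of -0.69, 0.13 and -0.65. Summed mRNA counts per spike-in count at 9 h were 0.910 of the 0 h value in WT, 1.66 in KO1 and 0.718 in KO2. The WT libraries rest on at most 257 spike-in counts each, and their replicates at 9 h gave 2418 and 3139 mRNA counts per spike-in count. Whether the amount of mitochondrial mRNA per cell rose or fell is thus not shown by these tables.

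By 9 h mt-Co1 had the largest change of the 7 mRNAs outside the copied stretch in all 3 lines on the TMM scale. Its level in WT was 9953 and 10020 CPM at 0 h, 17869 and 17885 at 3 h, 23034 and 23183 at 6 h and 21878 and 21736 at 9 h. In KO1 it went from 8309 and 8373 to 18080 and 18221 CPM at 9 h, and in KO2 from 8076 and 7885 to 16564 and 16239. The log2 changes by 9 h were 1.13 ± 0.012, 1.12 ± 0.013 and 1.04 ± 0.013 in WT, KO1 and KO2, and on the spike-in scale 0.30, 1.20 and -0.09. The other complex IV mRNAs lie inside the copied stretch and cannot be set beside it.

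The 5 complex I mRNAs outside the copied stretch were higher at 3 h than at 0 h in all 3 lines, and each had a smaller change at 9 h than at 3 h. mt-Nd1 in WT stood at 3104 and 3171 CPM at 0 h, 4445 and 4457 at 3 h, 4918 and 4988 at 6 h and 3753 and 3780 at 9 h. Its log2 change was 0.50 ± 0.015 by 3 h and 0.26 ± 0.015 by 9 h, and at 9 h 0.31 in KO1 and 0.35 in KO2. mt-Nd2 changed by 0.69 by 3 h and 0.20 by 9 h in WT, 0.83 and 0.14 in KO1 and 0.85 and 0.32 in KO2. mt-Nd5 was higher by 0.38, 0.38 and 0.32 at 9 h. mt-Nd4 ended near its start: its change by 9 h was 0.10 in WT, -0.14 in KO1 and 0.08 in KO2. mt-Nd6, the light-strand mRNA, changed by 0.38, 0.41 and 0.43 by 9 h. The largest change of a heavy-strand complex I mRNA outside the stretch was 0.38 in WT and KO1 (mt-Nd5) and 0.35 in KO2 (mt-Nd1), and the difference from mt-Nd6 was not tested. The counting used no strand, so reads of the opposite strand are not separated over the whole of mt-Nd6, which also overlaps mt-Nd5 by 14 bases.

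mt-Cytb had the smallest change of the 7 at both 3 and 9 h in WT. There it stood at 3261 and 3309 CPM at 0 h, 3780 and 3805 at 3 h, 3929 and 4008 at 6 h and 3197 and 3179 at 9 h. Its log2 change was 0.21 ± 0.015 by 3 h and -0.04 ± 0.015 by 9 h in WT, and -0.10 and -0.08 by 9 h in KO1 and KO2. The fall by 9 h in WT (edgeR adjusted p = 0.007) was lost without replicate 2 of WT at 0 h (-0.03, adjusted p = 0.097) or at 9 h (-0.04, adjusted p = 0.062). With total counts as the scale, mt-Cytb was higher at 9 h in all 3 lines, by 0.08, 0.08 and 0.12.

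**Figure D3:**
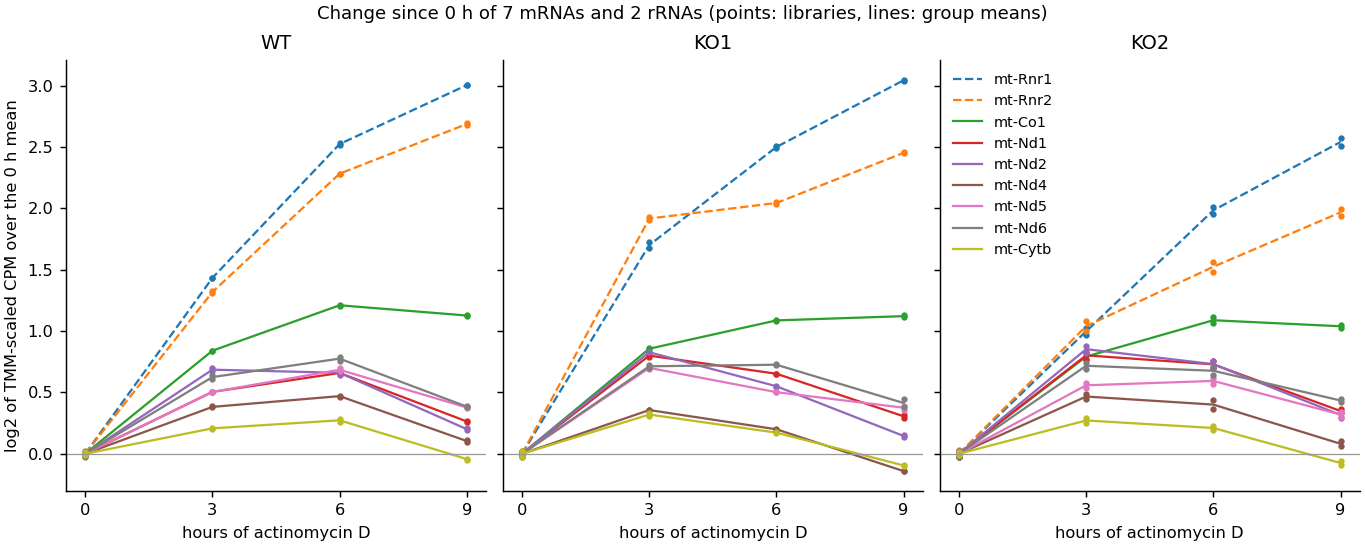
Log2 of the level (TMM-scaled CPM) over the mean of the 0 h libraries for 7 mRNAs and 2 rRNAs against hours of actinomycin D in WT, KO1 and KO2, points being libraries and lines group means. The rRNAs (dashed) climbed to about 3.00 for mt-Rnr1 in WT and mt-Co1 to 1.13, while mt-Nd4 and mt-Cytb returned close to 0 by 9 h.

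The rRNA counts rose far more than those of any mRNA outside the copied stretch. mt-Rnr1 in WT stood at 255 and 254 CPM at 0 h, 686 and 688 at 3 h, 1458 and 1471 at 6 h and 2042 and 2043 at 9 h. In KO1 it went from 182 and 179 to 1494 and 1484 CPM at 9 h, and in KO2 from 234 and 226 to 1364 and 1310. The log2 changes by 9 h were 3.00 ± 0.022, 3.04 ± 0.023 and 2.54 ± 0.023. For mt-Rnr2 they were 2.69 ± 0.022, 2.45 ± 0.024 and 1.97 ± 0.022. Both rRNAs were also higher at 9 h on the spike-in scale, by 2.18, 3.12 and 1.41 for mt-Rnr1 and 1.87, 2.53 and 0.84 for mt-Rnr2 in WT, KO1 and KO2. The rRNA share of gene counts went from 0.0566% to 0.439% in WT, and rRNA counts per 100 mRNA counts from 2.61 and 2.56 to 11.4 and 11.5. These are rRNA fragments that passed poly(A) selection, and their relation to total rRNA was not tested.

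Scaled to the sum of the 13 mRNAs in each library, which takes the nuclear transcripts out of the comparison, the mRNAs changed unequally in each line. By 9 h, 2 of 13 were higher and 7 lower in WT, 3 and 6 in KO1, and 1 and 6 in KO2. On this scale 25.7%, 25.8% and 25.7% of all genes were higher and 55.1%, 54.4% and 54.9% lower. The counts of the 13 are near or below these shares, so the unequal change is read from the values of single mRNAs. mt-Co1 gained 0.44 ± 0.017, 0.47 ± 0.017 and 0.39 ± 0.017 in log2, while of the 7 mRNAs outside the stretch mt-Cytb had the lowest value in WT and KO2, at -0.73 ± 0.021 and -0.73 ± 0.021, with -0.75 ± 0.021 in KO1. mt-Nd4 was lower by -0.58, -0.79 and -0.57, and mt-Nd1, mt-Nd2, mt-Nd5 and mt-Nd6 by -0.22 to -0.51 over the lines. Because mt-Co1 supplies 44.5% of WT mRNA counts at 0 h and 60.3% at 9 h, it moves this scale. With mt-Co1 left out of the sum, a choice made after seeing the data, mt-Cytb was still lower by -0.25, -0.26 and -0.28 and mt-Nd4 by -0.10, -0.31 and -0.13, but mt-Nd5 was higher by 0.17, 0.21 and 0.11 and mt-Nd6 by 0.18, 0.25 and 0.22.

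At 0 h on the same scale, 4 of 13 mRNAs were higher and 3 lower in KO1 than in WT, and 2 and 5 in KO2, against 39.7% and 55.9% of all genes higher and 4.92% and 3.01% lower. Of the sparse mRNAs inside the stretch, mt-Nd3 was higher in KO1 by 1.35 ± 0.498 (edgeR adjusted p = 0.021) and mt-Co2 lower in KO2 by -0.51 ± 0.222 (adjusted p = 0.041). Among the 7 others the differences ran from -0.13 to 0.20. mt-Nd4 differed by 0.20 ± 0.024 in KO1 and -0.10 ± 0.024 in KO2, and mt-Cytb by 0.15 and 0.08. For the 3 lower calls in KO1 (mt-Nd1, mt-Co1 and mt-Nd5, at -0.05 to -0.06), leaving out replicate 2 of KO1 or either WT library left 1.

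**Figure D4:**
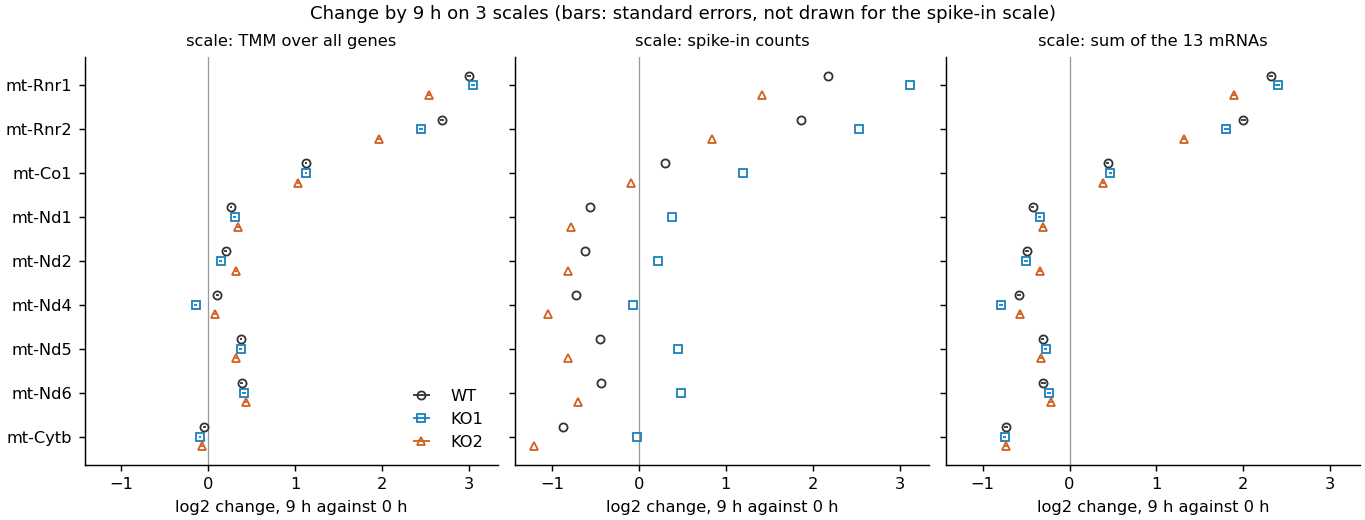
Log2 change from 0 to 9 h of 2 rRNAs and 7 mRNAs in WT, KO1 and KO2 with libraries scaled by TMM over all genes (left, with standard errors), by spike-in counts (middle) and by the sum of the 13 mRNAs (right, with standard errors). mt-Rnr1 and mt-Rnr2 lie above 0 on all 3 scales, and mt-Nd1 at 0.26 on the left and -0.56 in the middle in WT.

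The change over time differed between the lines for some members. By 3 h, 5 mRNAs had gained more in KO1 than in WT and 0 less in edgeR (13.1% and 12.7% of all genes; 1 less at an unadjusted p under 0.05 and 0 in DESeq2), and 5 more and 1 less in KO2 (13.3% and 11.4%). The clearest was mt-Nd1, whose gain by 3 h exceeded that of WT by 0.30 ± 0.021 in KO1 and 0.30 ± 0.021 in KO2. By 9 h only mt-Nd4 differed among the mRNAs in KO1, with a change lower by -0.25 ± 0.026, against 0 gaining more (14.7% of all genes higher, 12.5% lower; edgeR gave 0 gaining more at an unadjusted p under 0.05 and DESeq2 called 1). In KO2 by 9 h, 2 had gained more (mt-Nd2 by 0.12, mt-Nd1 by 0.09) and 2 less (mt-Co1 by -0.09, mt-Nd5 by -0.06), against 13.5% and 12.4% of all genes. With 13 mRNAs, the counts by 9 h are near the shares of all genes in both lines. For KO2, leaving out replicate 2 at 0 h or replicate 1 at 3 h reduced the 5 that had gained more by 3 h to 2, and without replicate 2 of WT at 0 h they were 3. The 1 that had gained less by 3 h in KO2 (mt-Co1) was lost without replicate 1 of WT at 0 h, without either WT library at 3 h, without replicate 1 of KO2 at 0 h or without replicate 2 at 3 h, and mt-Nd5 by 9 h was lost in 5 of 8 such fits. For KO1 by 9 h, the count that had gained less was 2 without replicate 1 of KO1 at 0 h and 3 without replicate 2 of WT at 0 h. All these differences share the WT libraries, and they hold on the TMM scale. On the spike-in scale, chosen for these differences after seeing the data, the changes of mt-Nd4 in KO1 (0.66), and of mt-Nd1 (-0.22) and mt-Nd2 (-0.19) in KO2, by 9 h had the opposite direction. There, 5 mRNAs had gained more and 0 less in KO1 than in WT by 3 h (20.1% and 0.47% of all genes), and 11 more and 0 less by 9 h (65.0% and 0.223%). In KO2, 0 differed either way by 3 h (0.761% and 4.41% of all genes) or by 9 h (1.14% and 14.8%) in edgeR, while at an unadjusted p under 0.05 5 had gained less by 9 h in KO2 and 0 differed by 3 h; DESeq2 was not run on this scale. As slopes over the 4 times, 0 mRNAs differed from WT in either line in edgeR, also at an unadjusted p under 0.05, and of all 16167 genes 29 did in KO1 and 31 in KO2.

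The rRNAs differed more. By 3 h, mt-Rnr2 had gained 0.60 ± 0.034 more in KO1 than in WT and 0.28 less in KO2 (log2 difference -0.28 ± 0.033). mt-Rnr1 showed 0.27 and -0.44. By 9 h, mt-Rnr2 had gained less than in WT in both lines (-0.23 ± 0.033 in KO1 and -0.72 ± 0.032 in KO2) on the TMM scale. On the spike-in scale the difference was 0.66 in KO1 (edgeR adjusted p = 0.00012), the opposite direction, and -1.03 in KO2. mt-Rnr1 differed by -0.46 in KO2 and by 0.04 in KO1 (adjusted p = 0.43). At 3 h mt-Rnr2 stood at 877 and 858 CPM in KO1, above the 806 and 818 CPM of WT, and at 9 h at 1260 and 1255 CPM in KO1 against 2089 and 2108 in WT.

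The tRNAs were sparse, and 9 of 22 passed the filter, 13 did not and 3 of those had 0 counts in every library, so that the 9 are those with more counts and not a sample of all. mt-Ta had at most 5 counts and mt-Ty at most 10 in any 0 h library, so both passed the filter through treated libraries. Their calls as higher by 9 h (mt-Ty in all 3 lines, mt-Ta in KO1) are thus no support for a rise. By 9 h, 7 of the 9 were higher in WT, 8 in KO1 and 7 in KO2, and 0 lower in edgeR, with 0 lower also at an unadjusted p under 0.05 and in DESeq2. Of all genes, 43.2%, 42.2% and 42.0% were higher and 38.5%, 38.3% and 38.8% lower. mt-Tp had 1375 and 1380 counts in WT at 0 h and 2668 and 2612 at 9 h, log2 changes of 0.91 in WT, 0.57 in KO1 and 0.70 in KO2. mt-Tn had 220 and 226 counts at 0 h and 734 and 736 at 9 h in WT, with changes of 1.70, 1.70 and 1.93. mt-Tc had 137 and 123 counts and then 482 and 480, with changes of 1.86, 1.82 and 1.85. These tRNA genes are on the light strand, but without strand in the counting, read-through of the heavy-strand precursor over them was counted alike.

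The remaining tested tRNAs had at most 69 counts in any library at 0 or 9 h. mt-Tl1, which follows mt-Rnr2 directly and reads leucine codons, had 19 and 21 counts at 0 h in WT and 49 and 62 at 9 h, and mt-Tw and mt-Th were higher at 9 h in all 3 lines. mt-Ty had 0 and 1 counts in WT at 0 h, 7 and 4 in KO1 and 9 and 10 in KO2, and 37 and 48 in WT at 9 h, a ratio to 0 h of 90.8 (95% exact interval 15.9 to 3629, counting error only). mt-Ta had 0 counts in both KO1 libraries at 0 h and 6 in each at 9 h, at least 4.03-fold higher against a floor of 3 counts over the group. mt-Te did not pass the test by 9 h in any line. At 0 h, mt-Tn and mt-Tp were lower and mt-Ty higher in both Nat10+/- lines than in WT, and mt-Tc was lower in KO2. This is 1 of 9 higher and 2 lower in KO1, and 1 and 3 in KO2. Of all genes, 15% were higher and 12.3% lower in KO1, and 15.1% and 14.3% in KO2. The mt-Ty calls rest on 0 and 1 counts in WT. DESeq2 called 0 of the 9 higher in KO1, where 1 had no adjusted p, and 1 in KO2.

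The 6 mRNAs inside the copied stretch differed between replicates of KO2 as the pseudogene rows did. In KO2 at 6 h, the 7 pseudogenes had 4253 counts in replicate 1 and 1262 in replicate 2, and the 6 mRNAs 2637 and 709, while the 7 other mRNAs had 554136 and 536762. In all 4 KO2 groups replicate 1 exceeded replicate 2, by 1.35- to 3.37-fold for the pseudogenes and 1.56- to 3.72-fold for the 6 mRNAs, with a depth ratio of 0.917 to 0.997. In KO1 the same ratios were 0.930 to 0.986 and 1.002 to 1.13, and in WT 0.937 to 1.28 and 0.960 to 1.47. The 7 other mRNAs showed no such split in KO2, with ratios of 0.945 to 1.03.

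**Figure D5:**
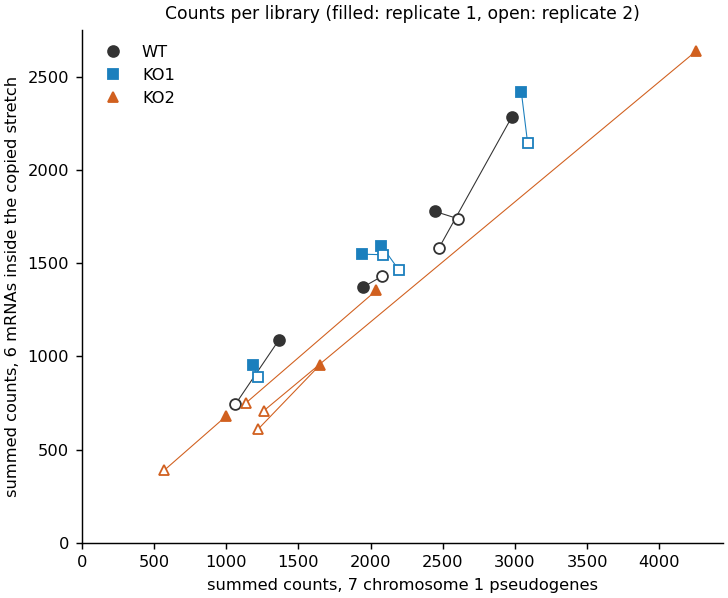
Summed counts of the 6 mRNAs inside the copied stretch against summed counts of the 7 chromosome 1 pseudogenes, each symbol being 1 library and thin lines joining the replicates of a group. The library of KO2 at 6 h labelled replicate 1 lies at 4253 and 2637 counts and its partner at 1262 and 709.

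In single members of the stretch, mt-Co2 had 24.3 and 17.1 CPM in WT at 0 h and 46.2 and 45.7 at 9 h, a log2 change of 1.15 ± 0.17. In KO2 it had 14.0 and 8.41 CPM at 0 h and 29.2 and 17.3 at 9 h. mt-Co3, mt-Atp8 and mt-Atp6 were also higher at 9 h in WT, by 0.99, 1.52 and 0.65. mt-Atp8 had 11 and 6 counts in WT at 0 h and 22 and 28 at 9 h. It had at most 11 counts in any 0 h library and passed the filter through treated libraries, so its call is no support for a rise. mt-Nd3 and mt-Nd4l did not pass the test at 9 h in any line. By 9 h, 4 of the 6 were higher in WT, 4 in KO1 and 3 in KO2, against 43.2%, 42.2% and 42.0% of all genes, so with 6 members these counts are near the background.

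Nuclear genes whose products act on the mitochondrial genome and its RNA were counted alongside. Of 17 genes for transcription and upkeep of the mitochondrial genome, 11 were higher and 2 lower at 9 h in WT, against 43.2% and 38.5% of all genes, with a median of 0.41 beside 0.13 over all genes. Polrmt, the mitochondrial RNA polymerase, rose by 0.93 ± 0.060, from a mean of 36.4 to 69.5 CPM, and by 0.92 and 1.09 in KO1 and KO2. Tfam, which packages the genome and opens its promoters, changed by 0.15 in WT (adjusted p = 0.017) and 0.06 in each Nat10+/- line (not passing the test). Tefm, the elongation factor of that polymerase, was higher in KO2 than in WT at 0 h by 0.30 (edgeR adjusted p = 0.047), and by 9 h it changed by -0.38 in KO2 (adjusted p = 0.0024), with -0.10 in WT and -0.20 in KO1 not passing the test. The largest called changes in the list by the naming rule were Mterf2 (2.02) and Mterf1a (1.94), related factors that bind mitochondrial DNA, and the protease Lonp1 (-1.59). At 0 h against WT, 7 of the 17 were higher and 0 lower in KO1, and 6 and 1 in KO2. Of all genes, 15% were higher and 12.3% lower in KO1, and 15.1% and 14.3% in KO2.

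Of 22 genes for processing, polyadenylation and decay of mitochondrial RNA, 8 were higher and 13 lower at 9 h in WT (median -0.35), 6 and 13 in KO1 (-0.19), and 6 and 13 in KO2 (-0.26). Of all genes, 43.2%, 42.2% and 42.0% were higher and 38.5%, 38.3% and 38.8% lower. Lrpprc, which stabilises the mRNAs, fell from a mean of 223 to 34.5 CPM in WT, log2 changes of -2.69 ± 0.046, -2.72 and -2.88 in the 3 lines. Its partner Slirp changed by -0.65, -0.66 and -1.12, and Mtpap, the poly(A) polymerase of mitochondria, by -1.95, -1.67 and -1.64. Fastkd3, of a family of mitochondrial RNA-binding proteins, rose by 1.39 in WT. At 0 h against WT, 11 of the 22 were higher and 1 lower in KO1, and 6 and 1 in KO2. Of all genes, 15% were higher and 12.3% lower in KO1, and 15.1% and 14.3% in KO2. In KO2 at 0 h, Pnpt1, the mitochondrial RNA-degrading phosphorylase, was higher by 0.49. Hsd17b10, a subunit of the RNase P that cuts out tRNAs, was the 1 lower there, by -0.33.

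Of 16 genes for modifying and assembling mitochondrial rRNA, 9 were higher and 3 lower at 9 h in WT (median 0.37), against 43.2% and 38.5% of all genes. Mrm1, a methyltransferase of the 16S rRNA, rose by 2.22 ± 0.09 in WT and by 1.37 and 1.43 in KO1 and KO2. Tfb1m, which dimethylates the 12S rRNA, fell by 2.19 in WT, 2.49 in KO1 and 2.98 in KO2 on the log2 scale. At 0 h against WT, 8 of the 16 were higher and 0 lower in KO1, and 4 and 0 in KO2. Of all genes, 15% were higher and 12.3% lower in KO1, and 15.1% and 14.3% in KO2.

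The products of the mitochondrial mRNAs join nuclear-encoded subunits, and mitochondrial ribosomes translate them. Of 80 nuclear respiratory chain subunits, 14 were higher and 6 lower at 0 h in KO1 and 3 and 34 in KO2 (medians 0.01 and -0.10). Of all genes, 15% were higher and 12.3% lower in KO1, near the share of this list, and 15.1% and 14.3% in KO2. By 3 h, 75 of the 80 were higher and 1 lower in WT (median 0.76), against 38.6% and 33.5% of all genes, and by 9 h 52 and 17 (median 0.44), against 43.2% and 38.5%. Of 77 tested mitochondrial ribosomal protein genes, 31 were higher and 2 lower at 0 h in KO1 and 16 and 5 in KO2, beside the same shares of all genes at 0 h. By 9 h in WT 27 were higher and 40 lower (median -0.17), against 43.2% and 38.5%.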

How the data were processed

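Polyadenylated RNA of mouse 32D cells was sequenced in 24 libraries, 2 for each of 3 lines and 4 times, grouped by their titles. The authors deposited counts of read pairs per gene, 1 table per library. Per the file headers these were made with featureCounts 1.6.3 in paired mode over exons grouped by gene, without strand and without counting pairs that map to several places or overlap 2 genes, on an annotation path naming Ensembl 105 of GRCm39 with ERCC spike-ins; per the submitters' processing notes STAR and DESeq2 were also used, in versions not given in the sources used here. Gene names came from GENCODE M21, which named 52081 identifiers. Rows of the 92 spike-in transcripts were left out of library sizes and tests.

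Genes were kept with filterByExpr at a minimum count of 10 (16167 genes). One edgeR 4.0.16 quasi-likelihood model (R 4.3.3) with a coefficient per group was fitted to the deposited counts of all genes on the TMM scale, and a second one with each library scaled to its sum of the 13 mitochondrial mRNAs. Calls are at a Benjamini-Hochberg adjusted p under 0.05 over all tested genes. Changes are log2 estimates ± SE from the F statistic, and levels are CPM on the TMM scale. 13 comparisons were made on the first scale and 5 on the second. Alternatives were DESeq2 1.42.0, TMM without mitochondrial rows, total counts, no filter, a replicate block, the groups of the comparison alone, spike-in counts, slopes over time and each library left out. The fit was tested on simulated data. Replicates of a group differed by 1.43 to 2.27 times the sampling noise (chi-square per degree of freedom), and each library was counted as 1 replicate.

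All 13 mRNAs and 2 rRNAs are named, as are the tested tRNAs. Nuclear copies and Nat10 are named. Of the nuclear lists, Polrmt, Tfam, Tefm, Lrpprc, Slirp and Mtpap are named, and up to 2 called genes each way with the largest log2 difference in KO2 against WT at 0 h and in WT by 9 h. The members and lists were chosen with earlier results of these data known. Sequences of members and pseudogenes were compared with the GENCODE M21 transcripts. Counts carry no molecular identifiers, so intervals and floors cover counting error only.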

Additional observations from a re-analysis of the deposited data

Results flagged for a closer look

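Each result here is a difference between a Nat10+/- line and WT in the change since 0 h (log2, TMM scale) that passed the test of the difference itself in edgeR (adjusted p under 0.05). All share the WT libraries. Each was refitted under 15 alternatives, of which 1 is the spike-in scale.

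By 3 h in KO1, mt-Rnr2 differed by 0.60, mt-Nd1 by 0.30, mt-Rnr1 by 0.27, mt-Nd5 by 0.20, mt-Nd2 by 0.14 and mt-Cytb by 0.11, and each passed in the same direction under all 15. mt-Nd6 differed by 0.088 and failed under 8.

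By 3 h in KO2, mt-Rnr1 differed by -0.44 and passed in the same direction under all 15. mt-Nd1 (0.30), mt-Nd2 (0.17) and mt-Rnr2 (-0.28) each failed under 1, the spike-in scale, on which mt-Nd2 was at -0.0082. mt-Nd6 (0.092) failed under 7, mt-Nd4 (0.084) under 4, mt-Cytb (0.064) under 6 and mt-Co1 (-0.048) under 7. The rRNAs thus had opposite signs in the Nat10+/- lines at 3 h, on the spike-in scale too.

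By 9 h in KO1, mt-Rnr2 differed by -0.23 and mt-Nd4 by -0.25, and on the spike-in scale both passed in the opposite direction, at 0.66 and 0.66. By 9 h in KO2, mt-Rnr2 differed by -0.72 and mt-Rnr1 by -0.46, both passing in the same direction under all 15. mt-Nd2 (0.12) and mt-Nd1 (0.085) failed under 1, the spike-in scale, where they were at -0.19 and -0.22, while mt-Co1 (-0.088) failed under 2 and mt-Nd5 (-0.057) under 9. Fitted instead as slopes over the 4 times, which is a different measure and called 29 of all 16167 genes in KO1 and 31 in KO2, 0 of the 2 results of KO1 and 0 of the 6 of KO2 passed (lowest adjusted p 1 and 0.985). The causes of these differences were not tested.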

How the results depend on the processing

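Over the alternatives, counts and shares moved in 75 cases and stayed in 316; gene values changed sign in 29, lost the call in 53 and stayed in 740. The changes follow, and their causes were not tested. The scale mattered most. With spike-in counts as the scale, the mRNAs called higher and lower were 4 and 1 in WT by 3 h and 0 and 1 in KO2, and by 9 h 2 and 7 in WT, 0 lower in KO1, and 0 and 9 in KO2. The gene values that changed sign on it by 9 h were, in WT, mt-Nd1 (-0.56), mt-Nd2 (-0.62), mt-Nd4 (-0.72), mt-Nd5 (-0.45) and mt-Nd6 (-0.44), and in KO2 mt-Nd1 (-0.78), mt-Nd2 (-0.81), mt-Co1 (-0.090), mt-Nd4 (-1.05), mt-Nd5 (-0.81) and mt-Nd6 (-0.69). For the difference in change from WT, the same scale, added after seeing the data, gave 0 more and 0 less by 3 h in KO2, 11 more and 0 less by 9 h in KO1, and 0 and 0 in KO2; the sign changed by 3 h in KO2 for mt-Nd2 (-0.0082), mt-Nd4 (-0.090), mt-Nd6 (-0.079) and mt-Cytb (-0.11), by 9 h in KO1 for mt-Nd4 (0.66) and mt-Rnr2 (0.66), and by 9 h in KO2 for mt-Nd1 (-0.22) and mt-Nd2 (-0.19). With total counts as the scale, 0 mRNAs were lower at 9 h in any line, mt-Cytb was at 0.076, 0.084 and 0.12 in WT, KO1 and KO2 and mt-Nd4 in KO1 at 0.037; the change by 9 h was greater than in WT for 4 in KO1 and smaller for 0 in KO2 (mt-Nd5 at 0.020), and by 3 h smaller for 0 in KO2 (mt-Co1 at 0.023).

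With DESeq2, 7 mRNAs were lower in KO2 than in KO1 at 0 h, 0 were lower at 9 h in WT and KO2, 1 had gained more by 9 h in KO1 and 1 less in KO2. With no filter, 1 was higher in KO1 than in WT at 0 h, and by 9 h 2 had gained less in KO1 and 1 in KO2. With only the groups of the comparison in the fit, 1 was higher in KO1 at 0 h, 0 lower at 9 h in KO2, 1 had gained less by 3 h in KO1 and 2 more in KO2, and by 9 h 1 had gained more and 4 less in KO1. With slopes over the 4 times, 0 differed lower in KO1 and 0 either way in KO2. mt-Nd4 in KO1 against WT at 0 h, which did not pass the test, changed sign with TMM without mitochondrial rows (0.00062) and no filter (0.014), and leaving out 1 library gave -0.017 to 0.027. Scaled to the mitochondrial sum without mt-Co1, 7 were higher and 2 lower by 9 h in WT, 8 and 2 in KO1 and 7 and 2 in KO2, and 1 was lower in KO2 at 0 h. With gene counts outside the mitochondrial genome as the denominator, the ratio of the mRNA share at 9 h to 0 h was 1.79 in WT and 1.81 in KO1.

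Across 10254 genes, same-numbered libraries deviated together little. Over 66 pairs of groups the correlation of deviations ran from -0.0235 to 0.152 with a median of 0.0118, and it exceeded 0.1 in 4. A correlation over so many genes cannot exclude pairing in single members. In all 4 KO2 groups, replicate 1 exceeded replicate 2 for the 7 pseudogenes and for the 6 mRNAs inside the copied stretch. The main fit did not pair samples by number. With the replicate block, 1 mRNA was higher in KO1 at 0 h, 2 had gained less by 9 h in KO1, and 1 was lower in KO1 at 0 h within the mitochondrial total; the other counts stayed within 1.5 times.

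Leaving out 1 library at a time gave ranges, lowest and highest, of 0 to 1 mRNAs higher in KO1 at 0 h, 7 to 11 lower in KO2 than in KO1, and 0 to 1 lower in WT at 9 h. For the difference in change, 2 to 6 had gained more and 0 to 1 less by 3 h in KO2, and 1 to 3 had gained less by 9 h in KO1 and 1 to 2 in KO2. Within the mitochondrial total, 1 to 3 were higher at 9 h in WT and 1 to 3 in KO2, and 1 to 2 lower at 0 h in KO1.

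Each group had 2 libraries, the 6 mRNAs inside the copied stretch and most tRNAs had few counts, and the spike-in scale rests on at most 257 counts in a WT library, which limits what each can show.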
